A study of Mus musculus with 8 samples.

Results

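The comparison described here sets 300 against 10 ng/ml doxycycline in mouse clone 4 cells. No array carried both RNAs: each was hybridised against RNA of clone 4 without doxycycline (0 ng/ml), so the doses were compared through that control. For each probe the log2 ratio on a 10 ng/ml array was subtracted from that on the 300 ng/ml array of the same dye orientation. A feature (a gene, or a probe whose gene could not be named) was counted as higher or lower when this difference was 1 or more in size, which is 2-fold, in the same direction in both orientations. Of 19410 features tested, 99 passed: 28 were higher and 71 were lower at 300 than at 10 ng/ml. The comparison used 4 of the 8 arrays of the series, 2 for each dose.

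All of these cells were bone marrow-derived pro/pre-B cells of the Pax5-/- genotype, grown with IL-7 on irradiated OP9 stroma, a feeder cell line. Their labels give huPax5, a human Pax5 transgene. It was delivered by a retroviral vector behind a tetracycline-response element and selected with puromycin, beside a vector for the doxycycline-dependent transactivator rtTA, selected with histidinol. Treated and control RNAs therefore shared the knockout, both vectors and the feeder cells, and differed in the labelled doxycycline concentration of 0, 10 or 300 ng/ml. Clone 4 is 1 clone, and the labels name no separate cultures of it. Each dose is thus 1 RNA sample measured on 2 arrays with the dyes exchanged, so no p-value is given, and every ± is the SD of those 2 orientations (n = 2), a technical spread.

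Pax5 is a paired-domain transcription factor that commits lymphoid progenitors to the B lineage. It activates genes of pre-B and B cell receptor signalling, such as Blnk, and represses genes of other lineages, among them Fcer1g, Notch1 and Csf1r. Progenitors without it stop at the pro-B stage and keep transcripts of several lineages. Doxycycline lets rtTA bind the response element, so the concentration is a means to set the amount of transgene. How the transcripts differ between a low and a higher concentration is the question the comparison addresses.

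Neither dose could be checked by the transgene itself. The Pax5 probe of this mouse array, whose signal from human transcripts is not known, gave ratios of 2.39 and 2.32 at 300 ng/ml and of 2.80 and 2.52 at 10 ng/ml, with the doxycycline RNA in Cy5 first and in Cy3 second, as in every pair of values below. The difference between the doses, -0.41 and -0.20, was under 2-fold. In cells labelled Pax5sz2, which are without the transgene, the mean ratio of the same probe was 3.02, above each of these values. The probe's ratios therefore give no measure of how far the transgene was induced. The direction of all ratios follows the dyes in the labels. Over all probes the 300 ng/ml arrays correlated with the 10 ng/ml arrays at 0.61 and 0.84, and with the 1000 ng/ml arrays of the same clone, measured against the same labelled control, at -0.36 and -0.46. The 1000 ng/ml arrays were also read with another scanner software setting. The multiplier for a spot well above background was 2.6 on them and 13 on the 300 and 10 ng/ml arrays. Whether a pair of arrays runs against its labels, and which, cannot be told apart here. If the 300 and 10 ng/ml ratios were both turned, the 28 higher features would be lower, the 71 lower features would be higher, and every sign below would turn.

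The 300 ng/ml array with the treated RNA in Cy5 carried a corner in which ratios were shifted downwards. Among 210 blocks of 15 by 15 spots, 30 had a median log2 ratio under -0.3, the lowest being -1.36. No block of the 10 ng/ml arrays lay beyond 0.3, and 5 did so on the other 300 ng/ml array. With 1 block above 0.3, these blocks held 2693 of the tested features (13.9%). In the Cy5 orientation 1391 features were lower by 2-fold, 1236 of them in these blocks, where the Cy3 orientation had 10 such features. The requirement of both orientations left 9 members in the corner, all lower: Cbfa2t3, Chst15, Crisp1, Id2, Kif5a, Ndrg1, Nkg7, P2ry12 and S100a4. With each block's median subtracted, 8 of these 9 remained past 2-fold in both orientations and P2ry12 did not. Without the spots of the shifted areas, 28 features were higher and 64 lower. The cause of the shift was not tested.

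**Figure D1:**
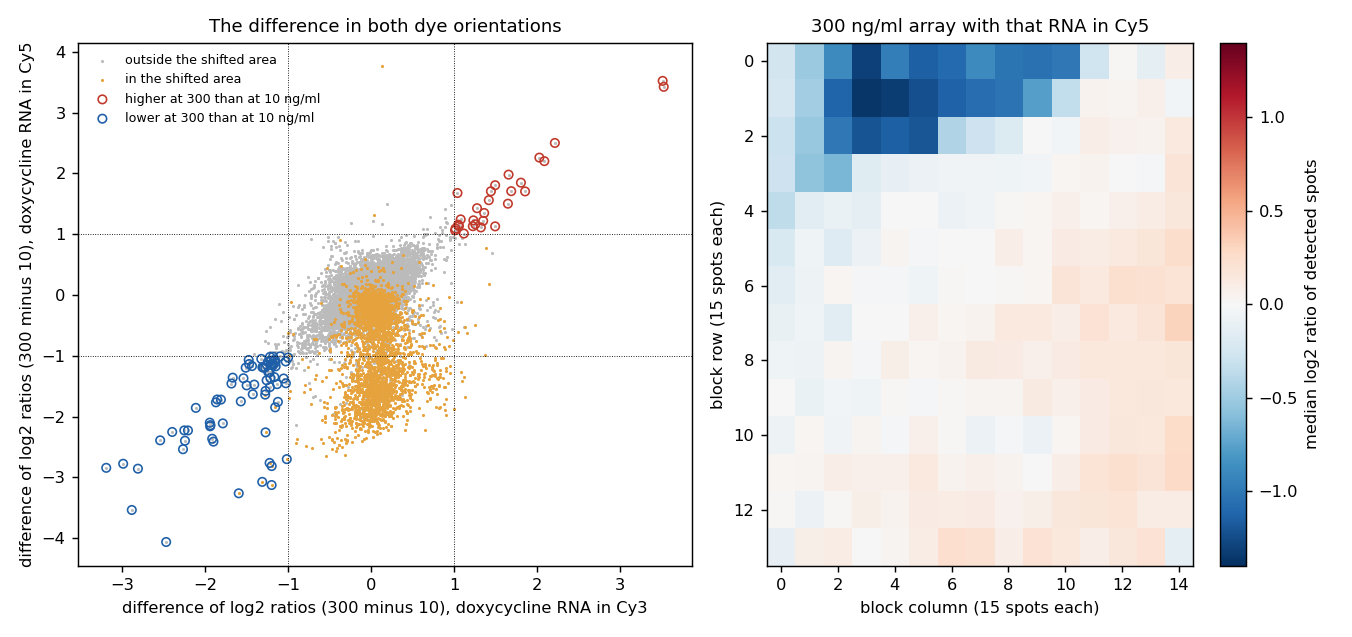
Left, the difference of log2 ratios (300 minus 10 ng/ml) of each tested feature with the doxycycline RNA in Cy3 (horizontal) and in Cy5 (vertical); dotted lines mark 2-fold, and circles the 28 higher and 71 lower features. Right, the median log2 ratio in each block of spots of the 300 ng/ml array with that RNA in Cy5, where the corner at the top left reaches -1.36; 1236 features of the shifted blocks (orange) are lower by 2-fold in the Cy5 orientation and 10 in the Cy3 orientation.

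Cells given 300 ng/ml had more RNA of some B lineage genes than cells given 10 ng/ml. They had less of some myeloid, mast cell and natural killer (NK) cell genes. Most tested genes of these lists did not pass, and Rasgrp3, of B cell receptor signalling, was lower. The median difference was 0.02 for the list of pre-B receptor signalling and -0.06 for mast cell and basophil genes. The adaptor gene Blnk (11.4-fold) and the SNARE regulator gene Cplx2 (11.1-fold) were the farthest apart on the higher side. On the lower side these were Nrgn (9.62-fold), which encodes a calmodulin-binding protein, the scavenger receptor gene Cd163l1 (9.25-fold) and Ctsg (8.10-fold), which encodes the neutrophil protease cathepsin G. Their order depends on the orientation. In the Cy3 orientation alone the difference was -2.47 for Nrgn and -3.19 for Ctsg. The higher features were 0.144% and the lower 0.366% of those tested. In the treated RNAs' own levels, without the control, 37 features were higher and 66 lower. They held 25 of the 28 higher members and 53 of the 71 lower members. The control RNA's level, as the mean of both orientations, also differed between the arrays of the doses. This mean was -0.21 to 0.27 (log2) in the lower members and -0.11 to 0.32 in the higher members. In either orientation alone the control's difference was over 0.5 in size for 1 higher and 1 lower member. It reached 2-fold in both orientations for 0 of all features. With ratios centred on each array's median in place of the loess curve, 22 features were higher and 108 lower (16.9% higher, against 28.3%).

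**Figure D2:**
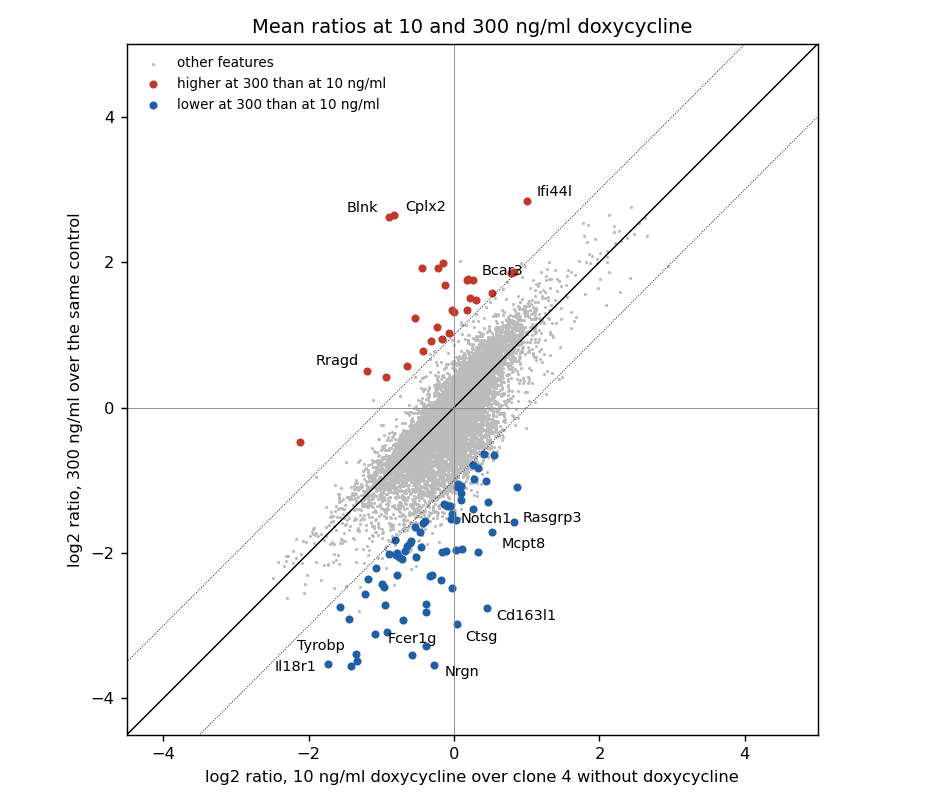
Mean log2 ratio over clone 4 without doxycycline at 10 ng/ml (horizontal) and 300 ng/ml (vertical) for each tested feature, as the mean of 2 arrays; the solid line is equality and the dotted lines are 2-fold. Blnk and Cplx2 lie above 0 at 300 and below 0 at 10 ng/ml, and most lower members lie close to 0 or below it at 10 ng/ml.

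The members can be sorted by what they did at each dose against the control. At 300 ng/ml only, that is past 2-fold on both 300 ng/ml arrays and within 0.5 of 0 on both 10 ng/ml arrays, 14 were higher (0.0721% of the features) and 25 lower (0.129%). With median centring 8 were higher and 3 lower by this rule, holding 7 of the 14 and 3 of the 25, so membership of this class, in the genes named below too, depends on the loess curve. All 71 lower members, but only 21 of the 28 higher members, still differed between the doses by 2-fold with median centring. Another 8 were graded, lower than the control by 2-fold at 10 ng/ml and lower again by 2-fold at 300 ng/ml, and 0 were graded upwards. No feature passed the mirrored rule for 10 ng/ml only, in either direction (0 and 0). The other 14 higher and 38 lower members met none of these patterns. By contrast 56 features were higher and 135 lower than the control by 2-fold at both doses and within 0.5 of each other.

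Of 23 tested genes of the list of Pax5-activated genes, 5 were higher, among them Blnk, Cplx2, Bcar3 and Irf4, and 1 was lower (Rasgrp3). At 1.5-fold in both orientations 11 were higher and 1 lower, against 102 (0.526%) and 248 (1.28%) of all features. The list's median difference was 0.65, and that of all features 0.01. The list was compiled with earlier results of these arrays known, so its count is a description.

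Blnk encodes the adaptor that joins the pre-B cell receptor and Syk to downstream signalling. Its ratios were 2.53 and 2.70 at 300 ng/ml and -0.99 and -0.81 at 10 ng/ml, a difference of 3.52 ± 0.01. All 300 ng/ml values were thus above the control and all 10 ng/ml values below it. The probe lies at mm8 chromosome 19, 40982249 to 40982308. Cplx2, which encodes complexin 2, a regulator of vesicle fusion, gave 2.67 and 2.63 against -0.75 and -0.90, a difference of 3.48 ± 0.07. It followed the same pattern. Its 2 other detected probes differed in the same direction but by less, and the median over its probes was 1.94, below that of Ttll11 (2.36).

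The promoter of Blnk is shown because this gene differed most. RefSeq places it on GRCm38.p6 at chr19:40994172-40994471, minus strand, and the 300 bases hold the transcript start near their end.
Blnk promoter: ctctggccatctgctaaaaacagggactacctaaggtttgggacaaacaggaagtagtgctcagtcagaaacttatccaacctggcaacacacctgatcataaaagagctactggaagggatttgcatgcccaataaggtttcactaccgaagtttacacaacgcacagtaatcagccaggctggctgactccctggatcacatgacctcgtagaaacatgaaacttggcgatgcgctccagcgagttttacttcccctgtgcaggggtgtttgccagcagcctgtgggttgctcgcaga
No capitals stand in it: none of the 3 motifs searched on both strands was found. They were GCGTGAC (a core of the Pax5 paired-domain site), CCCNNGGGA (the Ebf1 site) and GAGGAAGT (the site of PU.1 and related Ets factors). These letters stand in 2.09%, 6.56% and 3.20% of 32851 promoters of this length. Of 26 promoters of 20 higher genes, 1 held the first (Bcat1) and 1 the second (Cplx2), and 0 the third.

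Bcar3, an adaptor gene and a known Pax5 target, was higher at 300 ng/ml only, with 1.73 and 1.77 against 0.17 and 0.35. Irf4, a transcription factor needed for light chain rearrangement, showed the same with 1.13 and 1.10 against -0.30 and -0.18. In both genes the doses lay farther apart than the orientations of a dose. The size rule selects for such a gap, and the spread is technical, so variation between cultures was not tested.

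Further genes of the list were higher in both orientations by less than 2-fold in at least 1. Cd79a, the signalling chain of the B cell receptor, gave 0.24 and 0.09 at 300 ng/ml and -0.75 and -0.74 at 10 ng/ml, so that 300 ng/ml lay nearer to the control than 10 ng/ml. Ebf1, the transcription factor that acts beside Pax5, gave -0.47 and -0.27 against -1.15 and -0.77 and did not pass 1.5-fold in both orientations. Ikzf3 (Aiolos), a zinc-finger factor of B cells, differed by 0.98 ± 0.21 and Lef1, a partner of Wnt signalling, by 0.72 ± 0.06. Bst1 lay just outside the threshold, at 0.96 in its lower orientation. Irf8 differed by 0.19 ± 0.12, while Cd72 was lower, at -0.38 ± 0.20. In the whole list 16 genes had a mean difference above 0 and 6 below 0.

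Rasgrp3, an exchange factor for Ras that links B cell receptor signals to Erk, was lower at 300 than at 10 ng/ml. Its ratios were -1.74 and -1.41 at 300 ng/ml and 0.79 and 0.86 at 10 ng/ml, a difference of -2.40 ± 0.19. It was the only listed Pax5-activated gene of the 6 members whose 300 ng/ml values lay below the control.

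**Figure D3:**
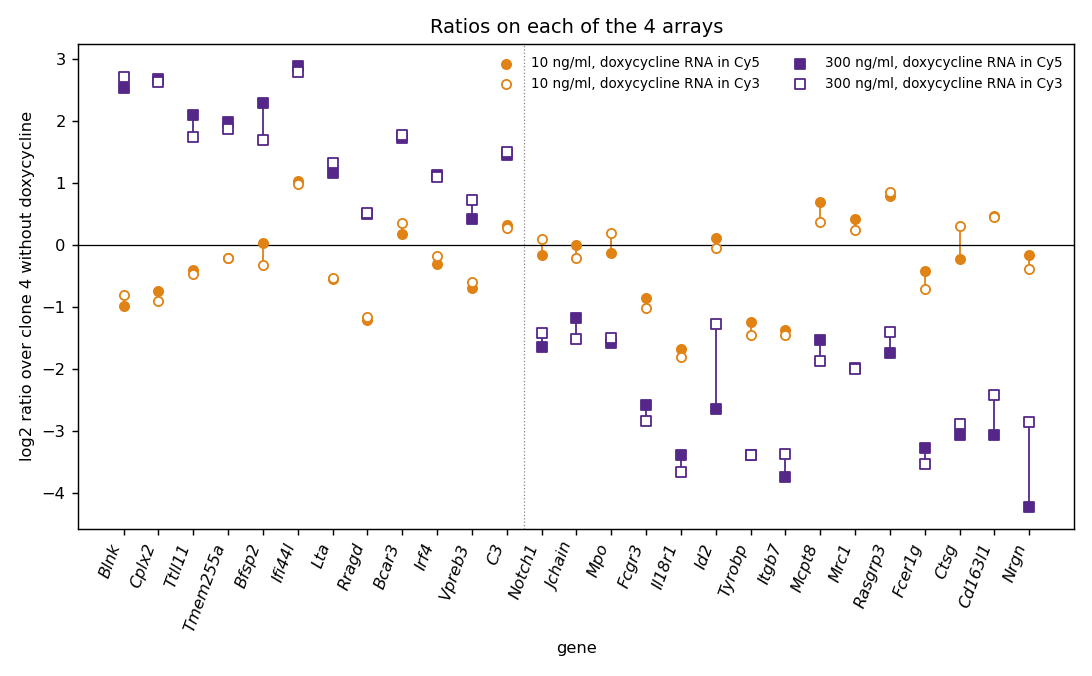
Log2 ratio over clone 4 without doxycycline on each of the 4 arrays for 12 higher and 15 lower members (left and right of the dotted line); orange circles are 10 ng/ml, purple squares 300 ng/ml, filled with the doxycycline RNA in Cy5 and open in Cy3, and a line joins the 2 arrays of a dose. Doses do not overlap for any gene shown, which the choice of members by the size rule favours. Id2 and Nrgn have the widest gap between their 300 ng/ml arrays.

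Other B lineage lists held few members, where 0.144% of all features were higher and 0.366% lower. Of 16 tested pro-B and pre-B cell genes, 1 was higher, Vpreb3, a component of early B cell receptor complexes, with 0.41 and 0.73 at 300 ng/ml and -0.70 and -0.59 at 10 ng/ml. The list's median was 0.01. Of 18 genes of pre-B receptor signalling, 2 were higher, among them Blnk, and 0 were lower, and of 17 mature B cell and class II genes 0 passed in either direction. An immunoglobulin heavy chain V segment, Ighv14-4, was higher at 300 ng/ml only (1.83 and 1.70 against 0.12 and 0.25). V segments form a family of near-identical genes, so signal of other members on this probe cannot be told apart.

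The other genes higher at 300 ng/ml only belong to several classes. Ttll11, of the tubulin-glutamylating enzymes, gave 2.10 and 1.74 against -0.40 and -0.47. Bfsp2, an intermediate filament gene known from the lens, gave 2.29 and 1.70 against 0.03 and -0.33, but only 1 of its 2 other detected probes differed the same way. Tmem255a, a membrane protein gene, differed by 2.14 ± 0.08, and its other detected probe did not follow. Complement C3 differed by 1.18 ± 0.07 (its other detected probe did not follow), the sialyltransferase gene St3gal6 by 1.16 ± 0.12, the retrotransposon-derived Rtl5 by 1.28 ± 0.09 and the Wnt antagonist gene Nkd2 by 1.10 ± 0.05. Over all 28 higher members, 11 had another detected probe, and in 6 of these every other probe differed the same way by at least 0.5.

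Outside that pattern, 2 higher members were 2-fold below the control at 10 ng/ml on both arrays. One was Rragd, a Rag GTPase gene of the mTORC1 pathway, with -1.21 and -1.17 at 10 ng/ml and 0.50 and 0.52 at 300 ng/ml. The other carries no gene name. Lta, the cytokine lymphotoxin alpha, gave 1.16 and 1.32 at 300 ng/ml and -0.55 and -0.54 at 10 ng/ml. The interferon-induced Ifi44l was above the control at both doses, with 2.88 and 2.79 against 1.04 and 0.98.

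The ITAM adaptors and Fc receptors held 4 lower genes of 19 tested and 0 higher, with a median of -0.14. The list covers chains of myeloid, mast and NK cell receptors and also B and T cell genes, such as Cd79a and Zap70. At 1.5-fold 6 were lower and 1, Cd79a, was higher. Over all features 0.366% were lower at 2-fold, and 1.28% lower and 0.526% higher at 1.5-fold. Fcer1g, the common gamma chain of Fc receptors and a known target of Pax5 repression, gave -3.28 and -3.53 at 300 ng/ml and -0.43 and -0.72 at 10 ng/ml. Its difference was -2.83 ± 0.03, and the 300 ng/ml values lay far below those of 10 ng/ml. The probe lies at mm8 chromosome 1, 173066338 to 173066397. Tyrobp (DAP12), the adaptor of NK and myeloid receptors, gave -3.39 on both 300 ng/ml arrays and -1.25 and -1.46 at 10 ng/ml. It was thus graded, below the control at both doses. Fcgr3, a low-affinity receptor for IgG, differed by -1.76 ± 0.06, although its other detected probe did not follow, and the adaptor gene Lat2 by -1.16 ± 0.03.

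Of 13 tested genes of the list of Pax5-repressed genes, 3 were lower (Fcer1g, Notch1 and Jchain) and 0 higher, and the median difference was -0.65. At 1.5-fold 7 were lower and 0 higher. Over all features 0.366% were lower at 2-fold, and 1.28% lower and 0.526% higher at 1.5-fold. Notch1, the receptor that directs progenitors to the T lineage, gave -1.65 and -1.42 at 300 ng/ml and -0.16 and 0.09 at 10 ng/ml. Jchain, which joins secreted immunoglobulin multimers, gave -1.18 and -1.52 against 0.00 and -0.21. Both were lower at 300 ng/ml only. Ccr2, a monocyte chemokine receptor, differed by -0.79 and -1.24 and so missed the threshold in 1 orientation. Csf1r, the receptor for M-CSF, differed by -0.36 ± 0.15.

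Myeloid and granulocyte genes included 4 lower of 19 tested and 0 higher, with a median of -0.48. Of all features 0.366% were lower and 0.144% higher. Ctsg gave -3.07 and -2.89 at 300 ng/ml and -0.23 and 0.30 at 10 ng/ml. Mpo, the myeloperoxidase of neutrophil granules, gave -1.59 and -1.50 against -0.13 and 0.19. Both genes were thus near the control at 10 ng/ml and lower at 300 ng/ml only. The 2 other lower genes, Tyrobp and Fcgr3, are also ITAM or Fc receptor genes. Outside the list, Mrc1, the macrophage mannose receptor, differed by -2.32 ± 0.11, with 0.41 and 0.25 at 10 ng/ml, and the paired receptor gene Pirb differed by -1.23 ± 0.06.

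Mast cell and basophil genes held 2 lower of 10, beside 0.366% of all features. Mcpt8, a protease of basophils, gave -1.54 and -1.88 at 300 ng/ml and 0.69 and 0.37 at 10 ng/ml, so that the doses lay on different sides of the control. Cpa3, the mast cell carboxypeptidase, gave -1.94 and -2.09 against -0.92 and -0.87. The list's median was -0.06. In NK and innate lymphoid genes 3 of 9 were lower, beside the same 0.366% of all features, with a median of -0.60. Il18r1, a chain of the IL-18 receptor, was graded (-3.39 and -3.66 against -1.67 and -1.80). Id2, the inhibitor of E-protein transcription factors, gave -2.65 and -1.27 against 0.11 and -0.05, and the cytotoxic granule gene Nkg7 differed by -1.50 ± 0.49; both lie in the shifted corner. With block medians subtracted their differences were -1.57 and -1.16. With the shifted areas left out, each was represented by its other probe, at -1.10 for Id2 and at -0.74, under 2-fold, for Nkg7. In bulk RNA, fewer cells of a type and less RNA per cell cannot be told apart.

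Of 17 T lineage genes, Notch1 was the only member of the 99, where 0.366% of all features were lower. Zap70, the kinase of T and NK cell receptors, missed the threshold in 1 orientation, at -1.08 and -0.96. Cytokine and chemokine receptors had 2 lower of 25 (Il18r1 and Il1r2, the decoy receptor for IL-1) and a median of -0.48. Integrins and selectins had 1 of 15, Itgb7, a chain of gut-homing integrins, which was graded with -3.74 and -3.37 against -1.37 and -1.45. Itgb3 lay just outside the threshold, with a mean difference of -1.08 ± 0.11. The other named graded genes were Gbp8, a guanylate-binding protein gene, with a difference of -2.16 ± 0.36, and P2ry12, a purine receptor gene, with -1.46 ± 0.26.

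Several of the lowest genes are better known from neurons or epithelia. Nrgn gave -4.23 and -2.85 at 300 ng/ml and -0.16 and -0.38 at 10 ng/ml, a difference of -3.27 ± 1.12, the widest spread between orientations among members outside the shifted corner. The scavenger receptor gene Cd163l1, a marker of gamma-delta T cells, gave -3.07 and -2.43 against 0.46 on both 10 ng/ml arrays. Slc17a8, a vesicular glutamate transporter gene, differed by -2.88 ± 0.15, and the glutamate receptor subunit gene Gria2 by -2.22 ± 0.01, although in neither did the other detected probe follow. The kinase gene Aatk differed by -1.98 ± 0.18. The corner genes, the kinesin gene Kif5a, Ndrg1 and Crisp1, differed by -2.43, -2.19 and -2.01, and by -1.82, -1.56 and -1.50 with block medians subtracted. Over all 71 lower members, 20 had another detected probe, and in 11 of these every other probe differed the same way by at least 0.5.

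The promoters of 3 lower genes of blood cell lineages are shown with the Ets motif found in them. Of 62 promoters of 48 lower genes, 7 (11.3%) held GAGGAAGT on either strand, against 3.20% of all promoters. These were Cbfa2t3, Clnk, Itgb7, Mpo, Pirb, Rasgrp3 and S100a4. None held GCGTGAC (0 of 62), and 2 held CCCNNGGGA. All promoters include those of genes not tested on these arrays, so the shares come from unlike sets. No promoter shown holds more than 1 match, so none overlap. The capitals mark the match, as GAGGAAGT or as its reverse complement. RefSeq places the promoter of Clnk, an adaptor gene of immunoreceptors, at chr5:38876644-38876943 (minus strand), that of Itgb7 at chr15:102231886-102232185 (minus strand) and that of Mpo at chr11:87793534-87793833 (plus strand), all on GRCm38.p6.
Clnk promoter: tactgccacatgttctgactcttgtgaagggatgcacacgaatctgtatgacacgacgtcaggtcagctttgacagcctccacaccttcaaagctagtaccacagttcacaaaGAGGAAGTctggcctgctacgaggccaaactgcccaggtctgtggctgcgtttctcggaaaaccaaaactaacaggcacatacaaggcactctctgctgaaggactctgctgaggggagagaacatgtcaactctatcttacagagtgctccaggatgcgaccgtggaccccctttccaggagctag
Itgb7 promoter: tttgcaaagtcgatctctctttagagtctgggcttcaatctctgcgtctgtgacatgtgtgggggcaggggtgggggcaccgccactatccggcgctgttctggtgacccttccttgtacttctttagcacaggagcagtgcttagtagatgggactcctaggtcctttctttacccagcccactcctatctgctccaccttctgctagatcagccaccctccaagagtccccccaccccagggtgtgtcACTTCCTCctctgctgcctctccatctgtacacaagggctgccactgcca
Mpo promoter: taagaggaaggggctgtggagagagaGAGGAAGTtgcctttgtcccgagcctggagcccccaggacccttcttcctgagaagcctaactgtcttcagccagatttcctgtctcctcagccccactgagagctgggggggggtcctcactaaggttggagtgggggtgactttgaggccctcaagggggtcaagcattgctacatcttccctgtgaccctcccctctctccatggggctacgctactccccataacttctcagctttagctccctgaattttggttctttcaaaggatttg
A match describes these letters, and binding was not measured. Mpo and Clnk were lower at 300 ng/ml only, Clnk with -1.58 and -1.22 against 0.17 and 0.35, although its other detected probe did not follow.

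**Figure D4:**
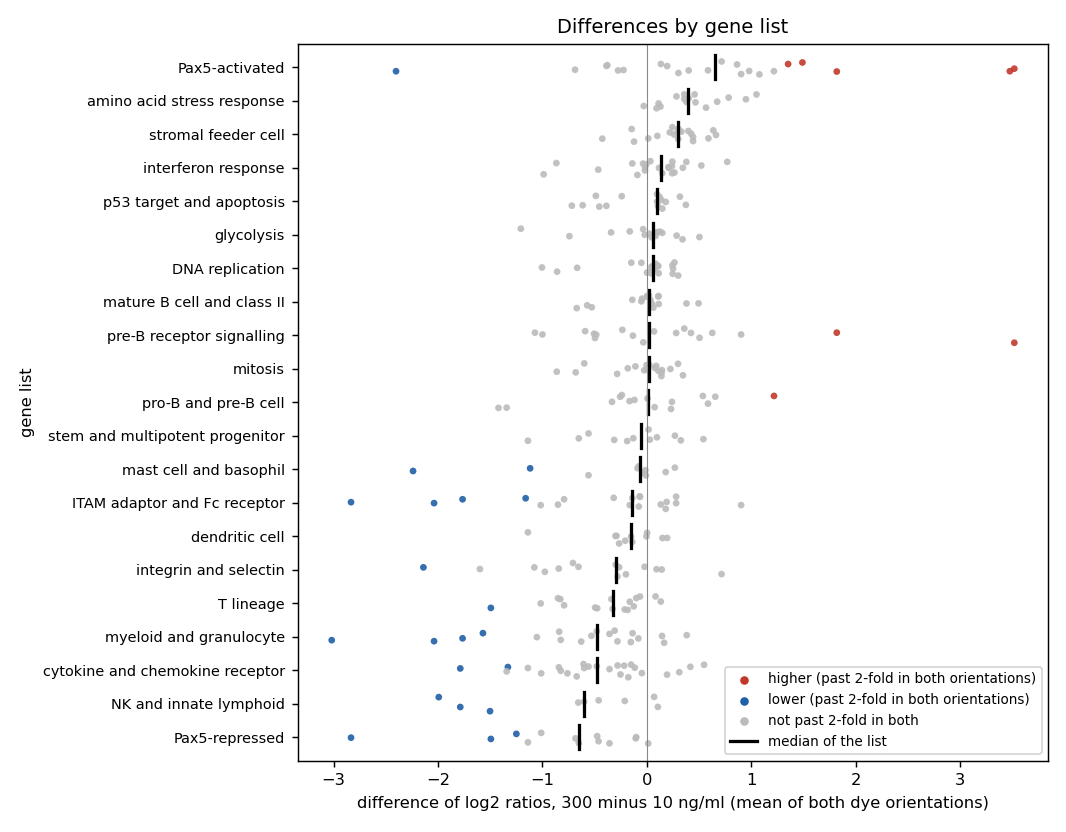
Difference of log2 ratios (300 minus 10 ng/ml, mean of both dye orientations) for each tested gene of 21 lists; red and blue points passed 2-fold in both orientations, and black bars are list medians. The median is 0.65 for Pax5-activated genes, -0.65 for Pax5-repressed genes and -0.60 for NK and innate lymphoid genes; the last is the lower of these with block medians subtracted (-0.57 against -0.53).

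The remaining lists held no member in either direction. Feeder cell genes had a median of 0.30: Vcam1, an adhesion molecule of stroma, gave 2.00 and 1.72 at 300 ng/ml and 1.20 on both 10 ng/ml arrays, and Col3a1, a collagen, gave 1.95 and 1.87 against 1.24 and 1.31. Of 22 feeder genes 20 were tested, and their median ratio over the control was 0.96 at 300 and 0.71 at 10 ng/ml; the part of feeder RNA in the other differences was not tested. Interferon response genes had median ratios of 1.10 at 300 and 1.11 at 10 ng/ml, and 0 of 22 differed between doses by 2-fold in both orientations. Ifi44l and Gbp8, which are interferon-induced but not in that list, did differ, in opposite directions. The difference was 1.83 ± 0.03 for Ifi44l and -2.16 for Gbp8. Amino acid stress genes had a median of 0.39, with Cth, an enzyme of cysteine synthesis, at 1.19 and 0.91. Medians of DNA replication, mitosis, glycolysis, p53 target, dendritic cell and stem cell genes lay between -0.15 and 0.10. In all, 22 members stood in at least 1 list and 77 in none.

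The threshold cut through a continuous range. By the orientation with the smaller difference, 10 features lay between 0.9 and 1 on the higher side and 27 on the lower side. The smallest such difference was 1.01 in size among the higher members and 1.00 among the lower members, and the nearest named genes outside were Bst1 (0.96) and Itgb3 (1.00).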

How the data were processed

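Total RNA was labelled with Cy3 and Cy5 and hybridised to 2-colour Agilent arrays, with the dyes exchanged on a second array, per the labels' protocols. The deposited scanner files were made with Feature Extraction; per the file headers they hold mean and local background intensity per spot without normalization, processed intensity after background subtraction and dye normalization, and a log10 ratio of Cy5 over Cy3. The deposited series matrix holds the same log10 ratio, turned to treated over control, on a log10 scale that was converted to log2 here; the log2 values used for all results were computed from the deposited spot intensity.

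Background was corrected with limma 3.58.1 in R 4.3.3 (normexp, offset 50), and ratios were normalized by loess with control spots at weight 0. Spots that the scanner software marked as outliers, 41 to 295 on each array, were dropped, and 0 spots were saturated. Spots of a probe were averaged. Of 41174 probes, 23374 were named by accession and 9652 by symbol or synonym from the RefSeq table, and 8148 kept their own identifier. The probe with the highest mean intensity stood for a gene. A probe was tested if it was well above background in the 300 ng/ml RNA on both arrays, in the 10 ng/ml RNA on both, or in the control on all 4 (28562 probes, 19410 features, 14666 of them with a gene name). Precision is limited by the number of arrays. A level without the control came from the same arrays after Aquantile normalization. Probe positions are those of the scanner files (mm8) and promoters those of RefSeq (GRCm38.p6). The size rule was also run on simulated data, from which no error rate for these arrays is drawn. How often unchanged features would pass the rule on these arrays, through errors shared by both orientations, was not tested.

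The members and the 21 gene lists (313 of 345 genes tested) were chosen with earlier results of these data known. Genes were named by rule: the 10 highest and 10 lowest differences, the 8 highest and 8 lowest at 300 ng/ml only, up to 6 graded genes and up to 3 per list. Others, among them Pirb, Clnk, Cd79a, Ebf1, Ikzf3, Lef1, Bst1, Irf8, Cd72, Ccr2, Csf1r, Mpo, Lat2, Irf4, St3gal6, Nkd2 and Pax5, were named after their values were seen. The 10 members known by an accession or clone alone are counted but carry no name here. Some genes that the rule names are left out of this account.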

Additional observations from a re-analysis of the deposited data

Results flagged for a closer look

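For 5 members both 300 ng/ml arrays lay on one side of the control and both 10 ng/ml arrays on the other, each by at least 0.5 on the log2 scale; whether the effects of the doses differ was not tested, since each dose is 1 RNA sample. The differences (300 minus 10 ng/ml) were 3.52 for Blnk, 3.48 for Cplx2 and 1.78 for Lta, which were above the control at 300 and below it at 10 ng/ml, and -2.40 for Rasgrp3 and -1.95 for Cass4, an adaptor of focal adhesions, which were the reverse. Cass4 gave -1.07 and -1.10 at 300 ng/ml and 1.04 and 0.68 at 10 ng/ml, and its other detected probe did not follow.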

How the results depend on the processing

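No paired analysis was possible because no result comes from a test: each difference is already taken between arrays of the same dye orientation. The 4 counts (28 higher, 71 lower, 14 higher and 25 lower at 300 ng/ml only) stayed within 1.5 times without background correction, with the median over a gene's probes, without the filter on dim probes, with the strict filter, with the treated RNAs alone, and with 2 alternatives chosen after seeing the data, block medians subtracted and shifted areas left out. The treated RNAs alone kept 25 of the 28 and 53 of the 71, so membership changed more than the counts. The Feature Extraction processed signals gave 88, 237, 31 and 74, and the series matrix ratios 85, 237, 30 and 74. Each of these settings kept 27 of the 28 and 67 of the 71. At 300 ng/ml only, each kept 9 of the 14 higher and 22 of the 25 lower. Median centring gave 108 lower and 8 and 3 at 300 ng/ml only, and scaling between arrays 9 higher at 300 ng/ml only. A 3-fold threshold gave 9, 22, 3 and 10, a 1.5-fold threshold 102, 248, 47 and 116, and a limit of 0.3 at 10 ng/ml 8 and 15. With 1 orientation left out the counts ranged from 50 to 53 higher, 100 to 1391 lower, 24 to 30 higher and 44 to 893 lower at 300 ng/ml only, the highest lower counts resting on the Cy5 array with the shifted corner. No called gene named by rule reversed its sign under any alternative run. The cause of the other changes was not tested.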

Other observations

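Side by side with the doses described, the 1000 ng/ml arrays, with ratios turned as labelled, gave mean log2 ratios of -4.20 for Blnk, -3.24 for Bcar3, 4.46 for Fcer1g, 5.14 for Ctsg and 2.60 for Notch1. Each has the opposite sign to its ratio at 300 ng/ml. In Pax5sz2 cells, labelled as treated and without the transgene, the same genes gave -3.41, 0.12, -1.09, -1.69 and -1.61. All these ratios share the labelled control RNA, but the 1000 ng/ml arrays were read with another scanner software setting.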
